A study of Mus musculus with 12 samples.

Results

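Pax3, Pax7, Zic1, Zic2, Zic4, Msx3, Gsx1, Gsx2, Prdm13 and Lbx1 are transcription factors of the dorsal spinal cord, and their transcripts were followed through sorted cells of the mouse embryonic cord. The members were the rows carrying these 10 gene symbols, out of 30740 symbols listed, and all 10 were found. The cells came from ventral spinal cord of CB6F1/J embryos at embryonic day E12.5 that carried Hb9:GFP, a reporter driven by the promoter of Mnx1 (also called Hb9) that labels spinal motor neurons. The libraries formed 4 groups: 5 from GFP-positive cells of control embryos, 5 from GFP-positive cells of Arhgap35 knockout embryos, and 1 from GFP-negative cells of each genotype. Arhgap35 encodes p190, a GTPase-activating protein. All groups share the reporter, strain, age and dissection. Controls were littermates that the protocol describes as wild-type or p190+/-, and the genotype label calls wild type, so a control library may hold cells with 1 mutant allele. Tissue from several embryos was pooled before sorting, and the sources used here do not say that replicates were separate litters. The p-values therefore measure the spread between these libraries. The cell type label reads motor neuron for GFP-negative cells too, and the groups here follow the GFP status in the sample titles.

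In the developing neural tube, signals from the roof plate (BMP and Wnt proteins) and from the floor plate (Sonic hedgehog) set up bands of progenitors along the dorsal to ventral axis. Pax3 and Pax7 are paired-box factors of the dorsal and intermediate progenitors. Msx3 is a homeobox factor confined to the dorsal neural tube, and the Zic genes encode zinc-finger factors expressed most strongly in its dorsal part. Gsx1 and Gsx2 are homeobox factors of dorsal interneuron progenitors, where Prdm13 acts with Ptf1a to favour inhibitory over excitatory sensory interneurons. Lbx1 appears as cells leave the cycle and marks the association interneurons, some of which migrate ventrally. Motor neurons arise from ventral progenitors that lie outside these dorsal bands.

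Promoter sequence is shown for 3 members of different roles, a dorsal patterning factor (Msx3), a progenitor factor (Gsx2) and an interneuron fate factor (Prdm13). Each is given as the 250 bases before the start site in the RefSeq promoter table (GRCm38.p6), 5′ to 3′ on the gene's strand. Capitals mark matches, on either strand, to 3 core promoter motifs: the GC box GGGCGG, the CCAAT box CCAAT and the TATA box TATAAA.
Msx3 (chr7:140049089-140049338, minus strand): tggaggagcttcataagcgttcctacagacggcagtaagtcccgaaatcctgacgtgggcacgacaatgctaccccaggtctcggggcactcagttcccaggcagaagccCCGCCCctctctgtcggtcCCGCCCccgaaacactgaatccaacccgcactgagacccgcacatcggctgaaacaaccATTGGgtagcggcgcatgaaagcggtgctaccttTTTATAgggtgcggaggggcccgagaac
Prdm13 (chr4:21685964-21686213, minus strand): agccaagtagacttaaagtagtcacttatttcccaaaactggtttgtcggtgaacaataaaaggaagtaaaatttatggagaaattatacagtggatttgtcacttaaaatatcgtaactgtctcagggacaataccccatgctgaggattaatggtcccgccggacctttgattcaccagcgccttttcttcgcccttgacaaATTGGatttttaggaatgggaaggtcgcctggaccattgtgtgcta
Gsx2 (chr5:75075351-75075600, plus strand): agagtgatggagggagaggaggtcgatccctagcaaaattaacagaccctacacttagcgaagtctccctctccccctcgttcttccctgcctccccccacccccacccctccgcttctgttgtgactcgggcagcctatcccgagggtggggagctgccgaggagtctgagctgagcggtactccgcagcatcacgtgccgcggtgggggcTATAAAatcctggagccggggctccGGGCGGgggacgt
The Msx3 window held reverse-strand matches to the GC box at positions -140 and -121 (first matched base, counted from the start site), to CCAAT at -62 and to TATAAA at -28. Prdm13 held a single match, CCAAT on the reverse strand at -46, and Gsx2 held TATAAA at -38 and GGGCGG at -13. The table had an entry for 7 of the 10 members. Pax3, Zic2 and Lbx1 had none. Of those 7, 4 held a GC box, 3 a CCAAT box and 2 a TATA box, against 32.7%, 33.8% and 12.4% of 32851 promoter windows of the same length. The homeodomain core TAATTA and the E-box CAGCTG, the 2 other motifs searched, were in 0 of the 7, against 4.84% and 13.001% of all windows. The windows of Pax7, which held a GC box, and of Zic4 lay wholly in annotated exons, inside the gene positions given below. The motif counts describe letters in short windows and nothing about binding.

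On GRCm38 (GENCODE M21), Zic1 (chromosome 9, 91358058 to 91365810) and Zic4 (chromosome 9, 91362413 to 91389348) overlap head to head on opposite strands. They share 60 exonic bases, 1.05% of the exonic length of Zic1 and 0.581% of that of Zic4, and reads from those bases cannot be assigned to either gene because the library kit does not keep strand. Zic4 also shares 468 exonic bases (4.53%) with Gm37477, a model on the opposite strand. No other member shares exonic bases with an annotated gene. Their positions are Pax3 (chromosome 1, 78101267 to 78197134), Pax7 (chromosome 4, 139737062 to 139833528), Zic2 (chromosome 14, 122475435 to 122479852), Msx3 (chromosome 7, 140046157 to 140049089), Gsx1 (chromosome 5, 147188696 to 147190947), Gsx2 (chromosome 5, 75075601 to 75077893), Prdm13 (chromosome 4, 21677480 to 21685963) and Lbx1 (chromosome 19, 45232684 to 45235812).

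Libraries held 23.7 to 33.8 M estimated counts, so that a floor of 3 counts is 0.0898 to 0.128 CPM. Here CPM, a count-per-million scale, is the estimated count relative to the library size after TMM scaling (trimmed mean of M-values). Arhgap35 ranged over 135 to 202 CPM in GFP-positive control libraries and 88.2 to 107 CPM in those of the knockout, and at 154 and 95.6 CPM in control and knockout GFP-negative cells. Mnx1 was at 230 to 315 CPM in GFP-positive and at 0.505 and 0.435 CPM in GFP-negative libraries, so the defining marker of the labelled cell type was nearly absent from the GFP-negative cells. Libraries with the same replicate number deviated together from their group means: the residual correlation of the 5 same-numbered pairs was 0.179 to 0.381, against at most 0.103 in the 20 other pairs of a control with a knockout library. Results are therefore given also with the number as a block where this matters.

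The 8 members that passed the filter on low counts among the GFP-positive libraries were far lower in GFP-positive than in GFP-negative cells. Summed over the members, the 2 GFP-negative libraries held 1026 CPM (control) and 971 CPM (knockout). It was 3.67 to 49.0 CPM in the 5 control and 4.77 to 48.5 CPM in the 5 knockout GFP-positive libraries. Each of these 8 was higher in both GFP-negative libraries than in every GFP-positive library. Of 17487 genes that passed the filter on low counts among the GFP-positive libraries, 32.1% showed that pattern. Gsx1 and Gsx2 showed it too, but they passed the filter only through the GFP-negative libraries, so it was built into their inclusion. In bulk RNA, fewer cells expressing a gene and less RNA per cell cannot be told apart. Although the tissue is described as ventral, its GFP-negative libraries thus held transcripts of these dorsal factors. The listed ventral progenitor and interneuron factors, 16 genes, summed to 141 CPM (control) and 127 CPM (knockout) in the same libraries. How much dorsal cord the dissected tissue held was not tested.

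Pax3, the paired-box factor of dorsal progenitors, was at 91.0 and 90.7 CPM in GFP-negative cells of control and knockout embryos. In GFP-positive cells it was at 5.52, 3.40, 1.17, 0.542 and 0.506 CPM in control replicates 1 to 5 and at 4.06, 4.04, 3.27, 0.599 and 0.687 CPM in knockout replicates 1 to 5. Even the highest of these libraries held 6.06% of the GFP-negative level of its genotype. The log2 fold change of GFP-positive over GFP-negative cells was -5.27 with a standard error (SE) of 0.617 and a 95% confidence interval of -6.65 to -3.88 (edgeR quasi-likelihood test, adjusted p = 3.39e-05). Pax7, its close relative, was at 39.3 and 43.5 CPM in control and knockout GFP-negative cells. It ran from 0.0834 to 3.19 CPM in control and from 0.240 to 1.90 CPM in knockout GFP-positive libraries. As for Pax3, the lowest values were those of replicates 4 and 5 in both genotypes. Its log2 fold change was -5.32 (SE 0.682, edgeR adjusted p = 6.00e-05).

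Msx3, the dorsal homeobox factor, was at 93.9 and 90.6 CPM in control and knockout GFP-negative cells. Its levels in control replicates 1 to 5 were 5.22, 3.02, 1.42, 1.04 and 0.928 CPM, and in knockout replicates 1 to 5 they were 4.34, 3.13, 3.31, 0.898 and 0.515 CPM. Replicates 4 and 5 were again the lowest in each genotype. The log2 fold change was -5.29 (SE 0.521, 95% interval -6.45 to -4.12, edgeR adjusted p = 8.37e-06).

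The Zic factors included the most abundant member. Zic1 reached 503 and 473 CPM in GFP-negative cells of control and knockout embryos and made up 49.0% and 48.7% of the members' summed CPM there. In GFP-positive cells Zic1 was at 20.4, 21.0, 4.27, 5.25 and 1.27 CPM in control replicates 1 to 5 and at 24.5, 16.3, 12.04, 2.75 and 2.09 CPM in the knockout replicates. The libraries numbered 1 and 2 were the highest of each genotype, and those numbered 5 the lowest. Zic2 was at 40.3 and 37.2 CPM in control and knockout GFP-negative cells and at 0.0422 to 2.21 CPM in GFP-positive cells. Zic4, the neighbour of Zic1, was at 105 and 103 CPM in GFP-negative cells. Its GFP-positive levels were 3.42, 3.70, 0.921, 0.0417 and 0.169 CPM in the control and 4.14, 4.66, 1.96, 0.0599 and 0.0687 CPM in the knockout replicates. In replicate 4 of the 2 genotypes these stand for 1 and 2 counts of Zic4, beside 126 and 92.3 counts of Zic1, so the neighbours did not keep 1 ratio across libraries. The log2 fold changes of GFP-positive over GFP-negative cells were -5.49 for Zic1, -5.37 for Zic2 and -5.80 for Zic4 (edgeR adjusted p = 8.14e-05, 9.25e-05 and 0.000134).

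Gsx1 and Gsx2, the homeobox factors of interneuron progenitors, were the least abundant members. Gsx1 was at 10.2 and 9.75 CPM in control and knockout GFP-negative cells and Gsx2 at 8.49 and 8.63 CPM. In GFP-positive cells Gsx1 had 0 to 10 counts and Gsx2 0 to 6 counts per library, and the 2 genes gave all 7 values at 0 among the 120 member values. Gsx1 was at 0 in replicate 4 of both genotypes and in knockout replicate 5, and Gsx2 at 0 in replicates 4 and 5 of both genotypes. A count of 0 there allows up to 0.0898 to 0.127 CPM. Both genes passed the filter on low counts only through the GFP-negative libraries, so a lower level in GFP-positive cells was built into their inclusion, and they entered no test among GFP-positive libraries. As a percent of the GFP-negative level of the same genotype, Gsx1 was at 0 to 4.19% and Gsx2 at 0 to 3.01% in GFP-positive libraries, given as a description only.

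Prdm13 acts in dorsal interneuron progenitors, and Lbx1 marks association interneurons. Prdm13 was at 47.3 and 37.3 CPM in control and knockout GFP-negative cells. In GFP-positive cells it was at 2.06, 1.02, 0.628, 0.125 and 0.0422 CPM in the control and 1.34, 1.90, 0.898, 0.0898 and 0.103 CPM in the knockout replicates. Replicates 4 and 5, with 1 to 3 counts each, were at or below the floor of their libraries. Its log2 fold change was -5.69 (SE 0.686, edgeR adjusted p = 3.72e-05). Lbx1 was at 87.5 and 77.2 CPM in GFP-negative cells and had the smallest difference of the members, a log2 fold change of -4.43 (SE 0.696, 95% interval -5.99 to -2.86, edgeR adjusted p = 0.000297). Its GFP-positive levels were 6.75, 3.62, 0.419, 8.88 and 0.506 CPM in the control and 5.60, 2.64, 1.84, 7.04 and 0.858 CPM in the knockout replicates. Lbx1 was thus highest in replicate 4 of both genotypes, where the other 9 members were low.

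**Figure D1:**
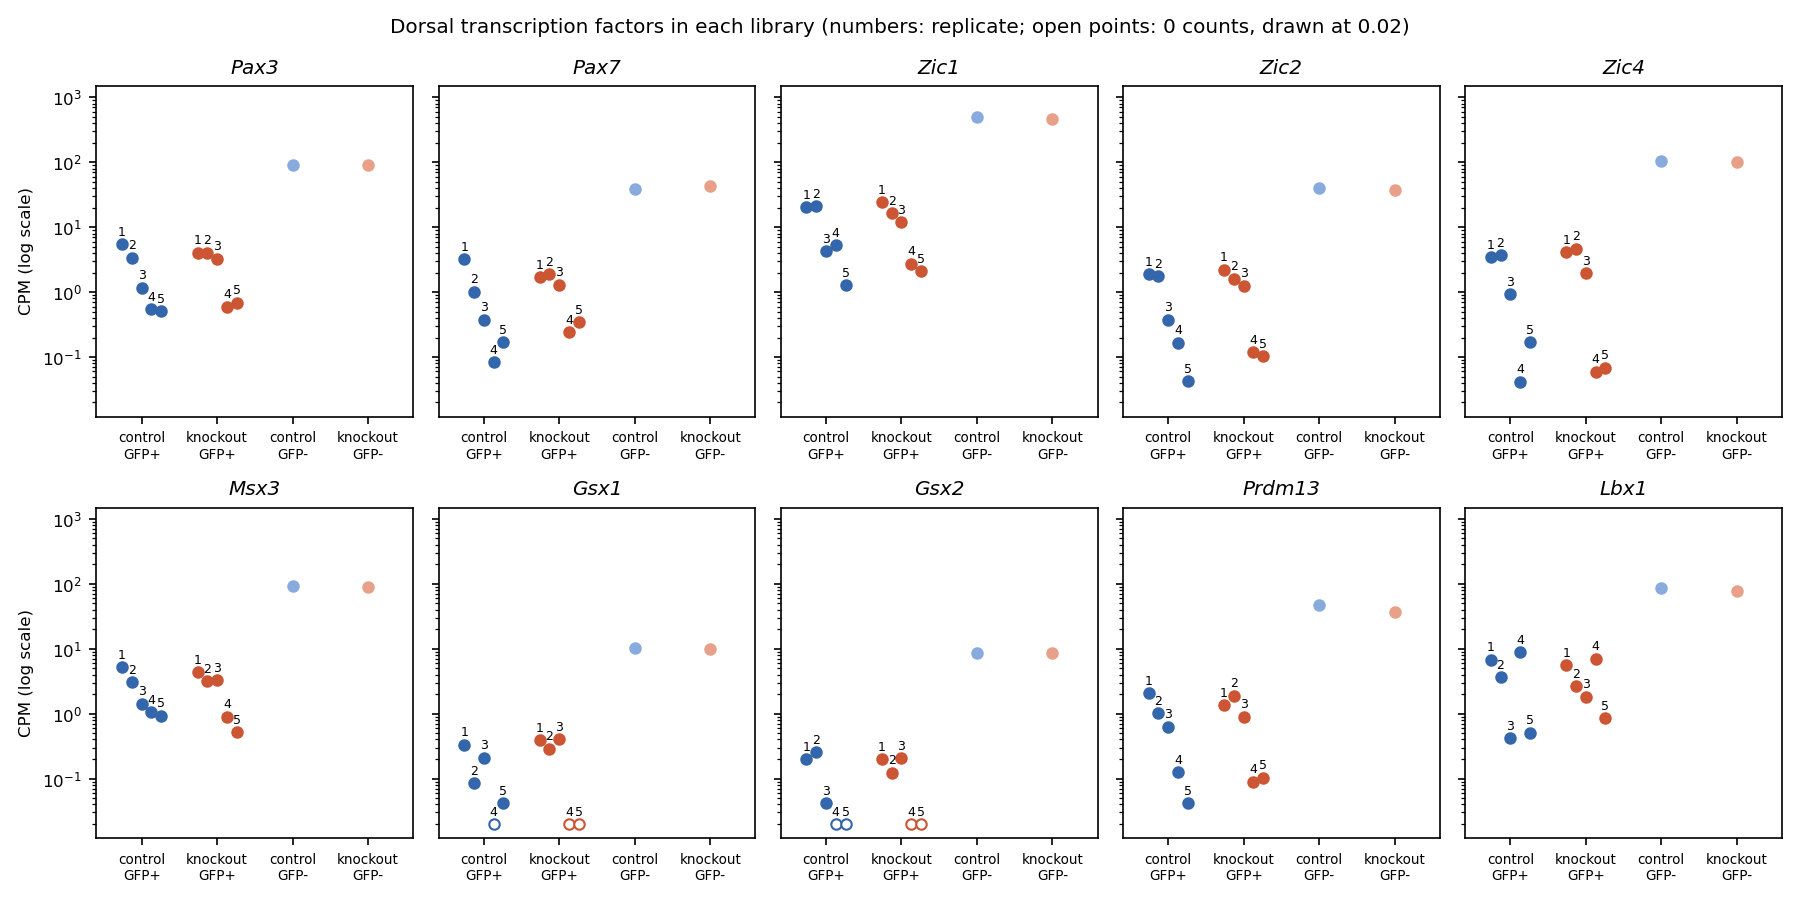
Level of each of the 10 factors in every library, in CPM on a log axis; points are single libraries, marked by genotype and replicate number, with GFP-negative libraries apart. Open points at the foot of a panel are libraries with 0 counts. Both GFP-negative libraries lie above all 10 GFP-positive libraries for every factor, which for Gsx1 and Gsx2 was built into their inclusion. Lbx1 alone has its highest GFP-positive values in the libraries numbered 4 (8.88 and 7.04 CPM).

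In the fit over all genes, 8 of the 8 members that also passed the filter among GFP-positive libraries were called lower in GFP-positive cells, against 33% of the 17487 genes that did so. Gsx1 and Gsx2, which entered only through the GFP-negative libraries, are left out of these counts. The log2 fold changes of the 8 ran from -5.80 (Zic4) to -4.43 (Lbx1) with a median of -5.34, beside a median of 0.022 over those genes. All 8 were below -3 (8-fold lower), as 1.96% of those genes were. With the replicate number as a block, in which each GFP-negative library counts as replicate 1, the 8 passed with log2 fold changes of -4.80 (Zic4) to -3.75 (Lbx1), and 30.1% of the same genes were called lower. Replicate 1 is the GFP-positive library with the highest summed level of the members in each genotype. A GFP-negative group of 1 library per genotype gives no spread of its own, so the spread in this test comes mainly from the GFP-positive libraries.

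On a scale that accounts for transcript length (TPM, the length-scaled abundance that the authors deposited), the order of levels in GFP-negative cells was Zic1 (379 TPM in control, 343 TPM in knockout), Msx3 (102 and 97.2), Zic4 (90.3 and 90.5), Lbx1 (80.0 and 70.1), Pax3 (55.8 and 55.1), Prdm13 (41.8 and 35.9), Zic2 (34.7 and 32.4), Pax7 (16.7 and 18.0), Gsx1 (13.04 and 12.4) and Gsx2 (12.4 and 12.9). Gsx1 and Gsx2 changed places between the genotypes, and the other neighbours in this order did not overlap, with 1 library of each genotype. In GFP-positive cells the mean TPM over 10 libraries was highest for Zic1 (8.42, range 1.03 to 17.6). Lbx1 had a mean of 3.54 TPM (0.379 to 8.24) and Msx3 one of 2.61 TPM (0.515 to 5.94). Without the libraries numbered 4 that order turned, with 2.57 TPM for Lbx1 and 2.98 TPM for Msx3. The other 7 members had means of 0.158 to 1.78 TPM. The ranges of neighbours in the GFP-positive order overlapped throughout.

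Levels of most members in GFP-positive cells differed by replicate number. In each genotype, 9 of the members, all but Lbx1, were higher in replicates 1 and 2 than in replicates 4 and 5. For Gsx1 in the control this rests on 2 counts in replicate 2 against 1 in replicate 5. The share of all genes with that order was not counted, so it is a description only. As a percent of the GFP-negative level of the same genotype, the median of these 9 in control replicates 1 to 5 was 4.36, 3.22, 0.960, 0.265 and 0.252%. In knockout replicates 1 to 5 it was 4.05, 4.33, 3.00, 0.322 and 0.277%. In replicate 3, with 1 library per genotype, all 10 members were higher in the knockout than in the control library, as were 50.6% of all genes. Lbx1 took another course, at 7.71, 4.13, 0.478, 10.1 and 0.578% in the control and 7.26, 3.42, 2.38, 9.11 and 1.11% in the knockout replicates. In replicate 4 the other 9 members were at 0 to 1.11% in the control and 0 to 0.992% in the knockout library. Lbx1 therefore made up 55.0% and 59.6% of the members' summed CPM in control and knockout replicate 4, against 4.26 to 18.0% in the other GFP-positive libraries and 8.53% and 7.95% in GFP-negative cells. In counts, Lbx1 had 213 in control and 235 in knockout replicate 4, and Pax7 had 2 and 8.

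**Figure D2:**
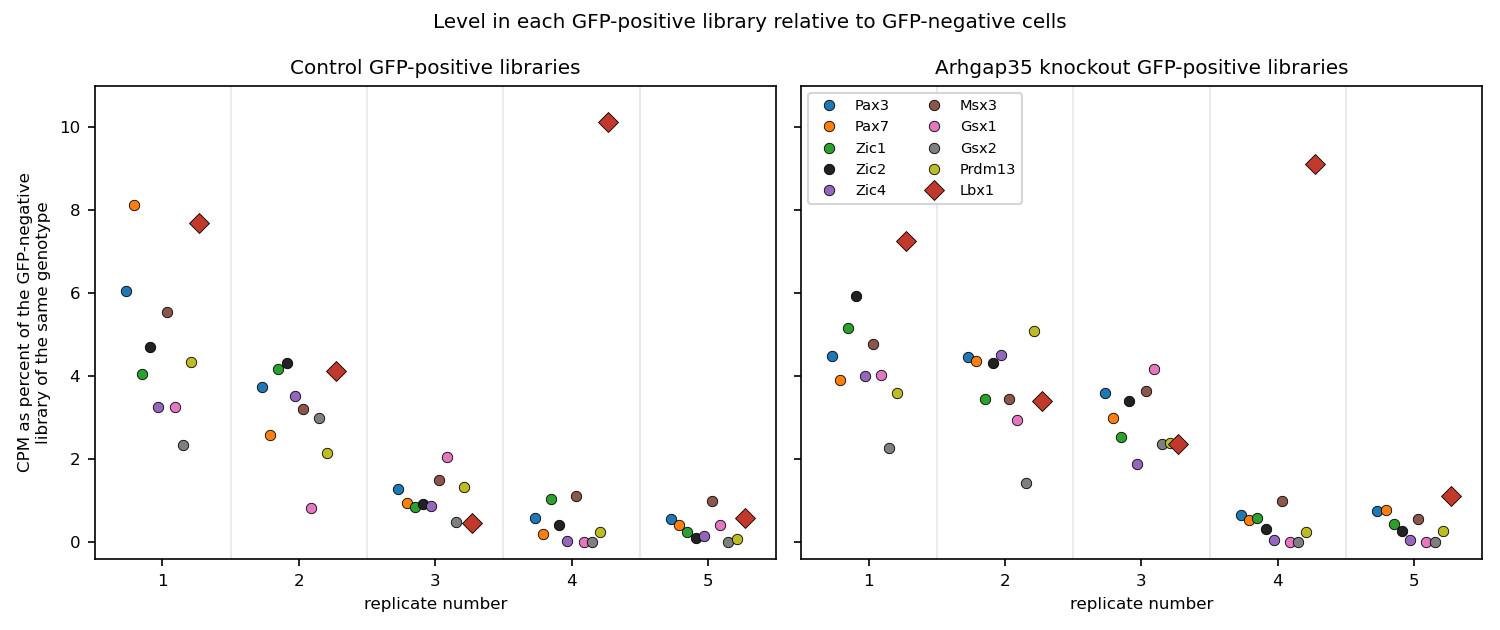
Level of each factor in the 10 GFP-positive libraries as a percent of the GFP-negative library of the same genotype, by replicate number, with a point for each factor and Lbx1 as a diamond. In replicate 4, Lbx1 stands at 10.1% (control) and 9.11% (knockout) while the other 9 factors stand at or below 1.11%.

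A test of differences among the 5 replicate numbers, with genotype in the fit, was added after these values had been seen. It passed the threshold for 6 of the 8 members that entered it, against 9.71% of 17487 genes: Zic4 (edgeR adjusted p = 0.000140), Zic2 (0.00254), Prdm13 (0.00254), Pax3 (0.00644), Msx3 (0.0147) and Pax7 (0.0278). Lbx1 and Zic1 did not pass (edgeR adjusted p = 0.0502 and 0.0943). Both passed with edgeR's robust fitting off (0.0194 and 0.0165), and Lbx1 also with scaling by library size only (0.0469) and with a filter at 1 CPM (0.0437). Single libraries moved some of these calls. Pax7 no longer passed without control or knockout replicate 2, 4 or 5 (edgeR adjusted p up to 0.118). Msx3 did not pass without control replicate 1 or 4 or knockout replicate 4 or 5 (up to 0.0662), nor Pax3 without control replicate 5 (0.0513). Without control or knockout replicate 3, Lbx1 (0.000808 and 0.000330) and Zic1 (0.0369 and 0.0313) passed as well. DESeq2 called 8 of the 8 and limma-voom 7. Limma on log2 TPM called 1, which was Zic4, of 5 members tested with a filter on TPM and of 10 without. The same number was the highest of 5 in both genotypes for 5 of the 10 members, against 36% of all genes. Replicate 1 was that number for 3 members (12.1% of all genes), replicate 2 for 1 (4.9%), replicate 4 for 1, which was Lbx1 (5.92%), and replicates 3 and 5 for 0 (4.29% and 8.81%).

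The labels do not tell what libraries of 1 number have in common, such as a litter or a sort. Levels of other cell type markers by number stand beside the members as follows. The summed motor neuron markers ranged from 1500 to 1857 CPM over control and from 1521 to 1909 CPM over knockout GFP-positive libraries and were highest in replicate 3 of both. The summed neural progenitor and cycling markers were at 554, 464, 431, 421 and 408 CPM in control replicates 1 to 5 and at 503, 525, 525, 438 and 425 CPM in the knockout replicates. This sum was thus lowest in replicate 5 of each genotype, as the members' sum was. Vim alone made up most of it, with a mean of 356 CPM over the 10 GFP-positive libraries. Single genes had other lows: Vim in control replicate 4 and knockout replicate 1, and Hes5 in replicate 4 of both genotypes. Sox3 was lowest in control replicate 5 and knockout replicate 4, and Sox2 in replicate 5 of both. The summed ventral progenitor and interneuron factors were at 53.2, 12.4, 4.61, 42.3 and 5.91 CPM in the control and 33.1, 10.02, 5.22, 25.2 and 5.53 CPM in the knockout replicates, highest in 1 and next in 4. The part of these cells in the members' levels was not tested.

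Genes of the same pathways showed both courses. Of 11 other dorsal progenitor factors, 7 passed the filter among GFP-positive libraries, and all 7 were called lower in GFP-positive cells (median log2 fold change -4.04), Msx1, a relative of Msx3, among them (-3.28). Ptf1a, the partner of Prdm13, and Msx2 entered only through the GFP-negative libraries, so their lower level (-6.17 and -4.33) is no support. Of 19 other dorsal interneuron factors, 17 passed that filter, and 16 were called lower (median -3.54), among them Tlx3, a selector of excitatory fate (-5.18), Prrxl1 (-4.05) and Sall3 (-3.08). Tlx1 (-6.42) entered only through the GFP-negative libraries. The summed level of these 19 was 361, 207, 117, 289 and 107 CPM in control replicates 1 to 5 and 281, 173, 129, 214 and 110 CPM in the knockout replicates. That sum was second highest in replicate 4 of each genotype. Replicate 4 was the highest of both genotypes for 1 of the 11 and 2 of the 19, against 5.92% of all genes. Replicate 1 was that number for 5 of the 11 and 12 of the 19, against 12.1% of all genes. The genes highest in replicate 4, named here after their values were seen, were Gbx2, Lhx1 and Gbx1. Lhx1, a factor of several interneuron classes, was at 106 and 86.7 CPM in replicate 4 and at 29.4 to 92.0 CPM in the other 8 libraries. Gbx1 was at 9.42 and 7.28 CPM in replicate 4. In the ventral list, replicate 4 was the highest of both genotypes for 2 of 16 genes and replicate 1 for 10. The 2 were Evx1 and Evx2, factors of ventral V0 interneurons that are also named after their values were seen. Evx1 stood at 16.3 and 9.07 CPM in replicate 4, and the control value was 155% of the GFP-negative level.

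**Figure D3:**
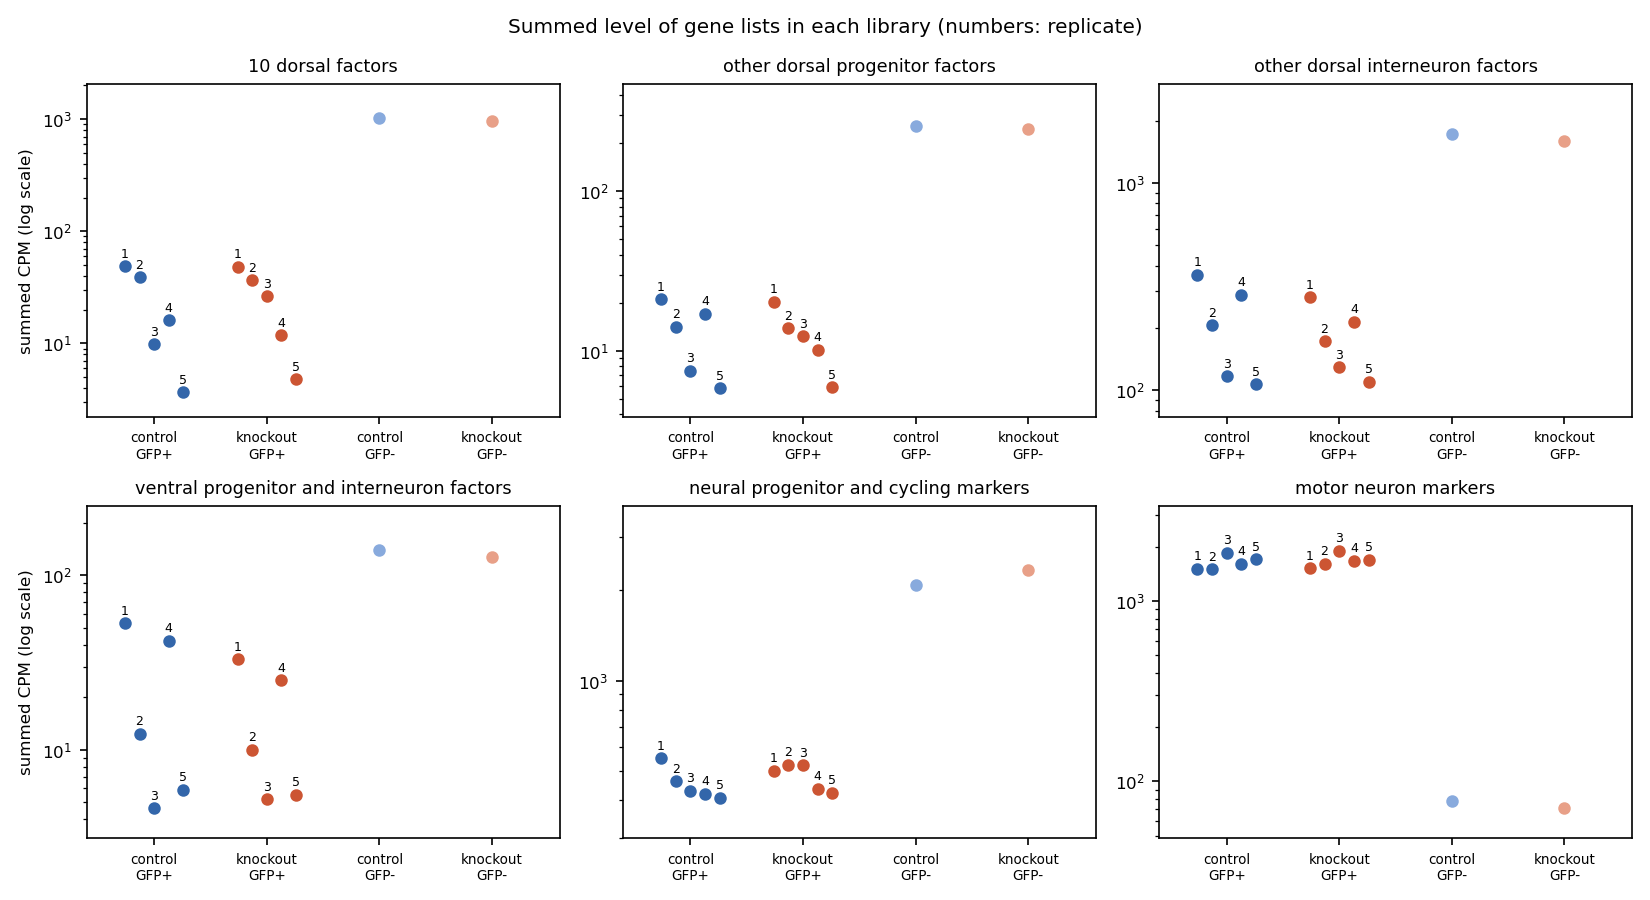
Summed CPM, on a log axis, of the 10 factors and of 5 other gene lists in each of the 12 libraries, by group and replicate number. The members' sum spans 3.67 to 49.0 CPM over the GFP-positive libraries, while the summed motor neuron markers span 1500 to 1909 CPM.

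Genes for dorsal signals went both ways. Of 11 roof plate and dorsal signal genes, 5 passed the filter among GFP-positive libraries, and of these 4 were called higher in GFP-positive cells, Bmp7 among them (log2 fold change 1.84), and 0 lower. Wnt1 and Wnt3a, roof plate ligands, and Bmp6 entered only through the GFP-negative libraries, with log2 fold changes of -4.55, -3.43 and -2.17 that are no support for a lower level. The list's sum was 45.9 to 54.2 CPM in GFP-positive libraries and 25.3 and 26.2 CPM in GFP-negative libraries. That difference was carried by Bmp7, without which the sum was 11.3 to 16.0 CPM in GFP-positive and 15.8 to 15.9 CPM in GFP-negative libraries. Of 12 ventral progenitor and interneuron factors that passed the same filter, 9 were called lower. All 9 motor neuron markers were called higher, as 30.1% of the 19763 genes tested were. That share also counts genes that entered only through the GFP-negative libraries. Mnx1 is 1 of these 9, and the sort used a reporter driven by its promoter, so its call was built in. All 10 neural progenitor and cycling markers passed with a lower level. Pax3 and Pax7 also mark embryonic muscle precursors and neural crest, and Lbx1 migrating muscle precursors. Of 7 myogenic markers, 2 were tested and 1 passed, Acta1, a muscle actin, higher in GFP-positive cells (log2 fold change 1.46; up to 1.20 CPM). Cdh15 did not pass and was at 0.536 to 1.03 CPM in GFP-positive libraries. The muscle-determining factors, named after their values were seen, were near 0 everywhere, with Myf5, Myod1, Myog and Myf6 at 0 counts in both GFP-negative libraries and at no more than 0.295 CPM elsewhere. The 8 neural crest, glia and sensory markers summed to 20.6 and 19.3 CPM in GFP-negative and 14.8 to 22.8 CPM in GFP-positive libraries, and Runx1 passed with a higher level. Sox10 (-3.87) entered only through the GFP-negative libraries.

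No member differed between knockout and control GFP-positive cells beyond the spread of the libraries. Of the 8 members tested, 0 passed, against 0.0343% of 17487 genes (6 genes), and 0 had an unadjusted edgeR p under 0.05, as 2.14% of genes did. Arhgap35, the gene knocked out, was 1 of these 6 genes (log2 fold change -0.83, edgeR adjusted p = 0.0240). DESeq2 and limma-voom also called 0 of the 8. Pax3 averaged 2.23 ± 2.19 CPM over control and 2.53 ± 1.75 CPM over knockout libraries (SD, n = 5 per group), and its log2 fold change was 0.15 (95% interval -1.65 to 1.95, edgeR adjusted p = 0.999943). Zic1 was at 10.4 ± 9.49 and 11.5 ± 9.46 CPM, and Lbx1 at 4.03 ± 3.76 and 3.59 ± 2.62 CPM (SD, n = 5 per group). These SDs are close to the means, and the 2 genotypes overlapped for every member, whereas 0.486% of genes had groups that did not. The log2 fold changes of the 8 ran from -0.17 (Lbx1, interval -2.14 to 1.79) to 0.36 (Zic4, interval -2.39 to 3.11), with a median of 0.12 beside -0.0016 over all genes. These intervals leave room for changes of several-fold in either direction.

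With the replicate number as a block, the intervals narrowed. The log2 fold changes of knockout over control were then 0.32 for Pax3 (95% interval -0.26 to 0.91), 0.52 for Pax7 (-0.43 to 1.46), 0.19 for Zic1 (-0.86 to 1.24) and 0.41 for Zic2 (-0.25 to 1.08). Zic4 was at 0.42 (-0.059 to 0.90), Msx3 at 0.044 (-0.53 to 0.62), Prdm13 at 0.20 (-0.45 to 0.86) and Lbx1 at 0.069 (-0.81 to 0.95). Again 0 of the 8 passed (edgeR adjusted p = 0.978 to 0.9996), beside 5 of 17487 genes (0.0286%), and 0 had an unadjusted p under 0.05, against 5.08% of genes. The lowest unadjusted p was that of Zic4 (0.0795, edgeR with the block). The highest upper limit, that of Pax7, is a log2 change of 1.46. Within pairs of the same number, the knockout library held the higher level for 4 of 10 members in replicate 1, 6 in replicate 2, 10 in replicate 3, 3 in replicate 4 (2 equal) and 6 in replicate 5 (1 equal), against 47.9, 49.4, 50.6, 55.6 and 53% of all genes. The 10 members of a pair share their libraries and are not independent of each other.

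**Figure D4:**
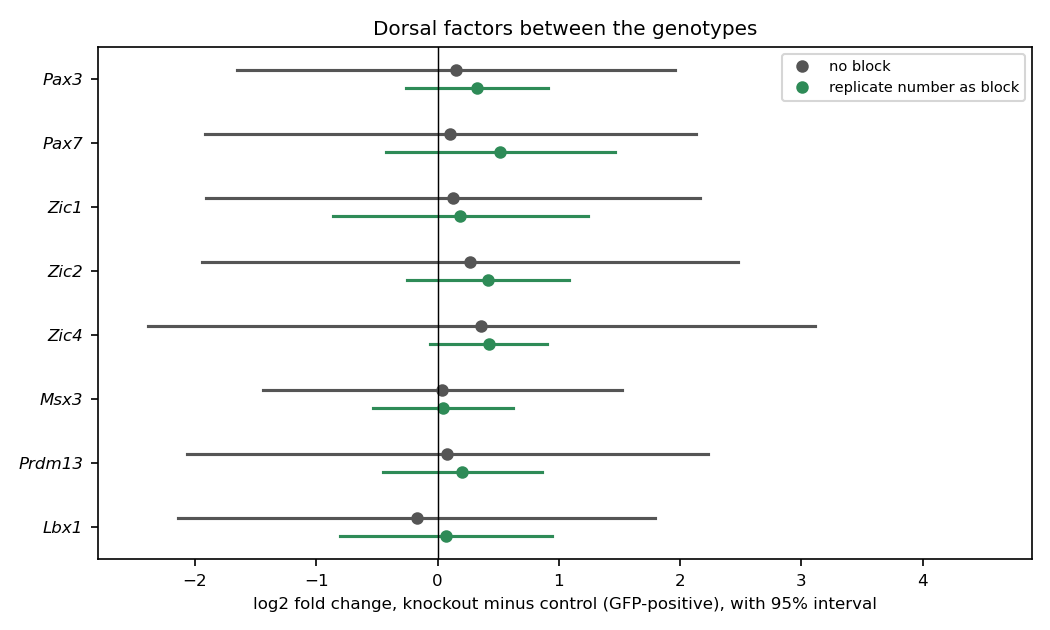
Log2 fold change of knockout over control GFP-positive cells for the 8 factors tested, as points with 95% intervals, from the fit without and with the replicate number as a block. All 16 intervals include 0, and those with the block are the narrower ones.

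The other dorsal genes gave the same count. Of 7 other dorsal progenitor factors tested between knockout and control GFP-positive cells 0 passed (median log2 fold change -0.058), and of 17 other dorsal interneuron factors 0 passed (median -0.30, with 14 below 0). The 12 ventral factors tested all had values below 0 (median -0.70) and 0 passed. At an unadjusted edgeR p under 0.05 the number was also 0 in each of these 3 lists. All 6 endothelial markers tested and all 5 erythroid ones had values above 0 (medians 0.60 and 0.63), and 0 passed. Cldn5, an endothelial tight junction gene named after its values were seen, had an unadjusted edgeR p under 0.05, and no other gene of these 2 lists did. Endothelial, mesenchyme and erythroid markers had their highest GFP-positive sums in knockout replicate 2 (16.2, 16.2 and 46.8 CPM). Their part in the knockout comparison was not tested.

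In GFP-negative cells, with 1 library per genotype and so no replicate check, the ratio of knockout to control CPM had a counting interval that excluded 1 for 4 of the 10 members, against 17.7% of 19763 genes. Prdm13 had a ratio of 0.789 (95% exact interval 0.728 to 0.856), Lbx1 0.882 (0.833 to 0.934), Zic1 0.941 (0.919 to 0.964) and Pax7 1.11 (1.02 to 1.20). These intervals cover counting error only and compare 2 libraries, not the genotypes. The ratios of the other 6 members were 0.923 to 1.02, with intervals that include 1. The interaction, the change by knockout of GFP-negative cells less that of GFP-positive cells, passed for 0 of the 10 members, against 0.0253% of 19763 genes, and 0 had an unadjusted edgeR p under 0.05 (1.78% of genes). DESeq2 and limma-voom called 0 of the 10. Without Gsx1 and Gsx2, which entered only through the GFP-negative libraries, the count was 0 of 8, with differences on the log2 scale of -0.37 (Prdm13) to 0.092 (Pax7). The widest 95% interval was that of Zic4, -5.14 to 4.49. This fit assumes that each lone GFP-negative library varies like the replicated groups.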

How the data were processed

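RNA-seq of 12 libraries of sorted ventral spinal cord cells was used. The authors deposited estimated counts (expected counts) per symbol with no scaling between libraries, of which 39.2% are whole. The TPM values were also deposited by the authors and are the counts relative to transcript length and library total; their columns do not sum to 1 total, and the step behind that is not stated. Per the submitters' processing notes, both came from kallisto (no version) and mm10, with no word on how transcripts were added up to symbols. Per the labels' protocols, libraries were made with TruSeq RNA v2 and read as 50 bp single ends. Columns were matched by genotype, GFP status and number, and 0 were left unmatched. Estimated counts were rounded to whole numbers, filtered by filterByExpr and scaled by TMM. The test was the quasi-likelihood F-test of edgeR 4.0.16 with robust fitting (with limma 3.58.1 in R 4.3.3). Adjusted p-values are Benjamini-Hochberg over every gene in the fit, and 0.05 was the threshold. Levels are CPM on TMM-scaled sizes. GFP-positive and GFP-negative cells were compared in all 12 libraries with genotype as a covariate. The member ratios between GFP-negative libraries carry 95% exact intervals for counting error. The fits were also run on simulated counts with added changes, and the outcome is not reported here. A minimum recovery was required of each fit except that for the difference of knockout effects.

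The members, gene lists and tests were chosen with earlier results of these data known. All 10 members are named, with, from each other list, up to 4 called genes of smallest p in the GFP comparison; genes named outside that rule are said to be so where they stand, and not every gene that the rule gives is reported here. No 2 replicates agreed within sampling noise (chi-square per degree of freedom 8.33 to 26.9 over 20 pairs). Pairing by replicate number was taken from the residual correlations; the numbers stand in the sample titles. Motifs were searched in RefSeq promoter windows (GRCm38.p6), and positions are from GENCODE M21. Alternatives were other scalings and filters, limma-voom, DESeq2 1.42.0, limma for log2 TPM at pseudocounts of 1 and 0.1, robust fitting off, the replicate block, and leaving out libraries. The test among replicate numbers and the omission of both libraries numbered 4 were added after seeing the data.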

Additional observations from a re-analysis of the deposited data

How the results depend on the processing

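The lower level in GFP-positive cells passed, for each of the 8 members that also passed the filter among GFP-positive libraries, in each of the 28 alternatives run, among them each library left out in turn (log2 fold changes from -7.29 for Zic4 to -3.74 for Pax7, adjusted p up to 0.0405 for Lbx1). In the knockout comparison 0 members passed in any of 24 alternatives, and in the difference of knockout effects 0 in any of 22. Adding the replicate block changed no call of a member.

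Counts over all genes moved more. The 6 genes called between knockout and control became 11 with DESeq2 (which shared all 6), 0 with limma on log2(TPM + 1), log2(TPM + 0.1) and log2(TPM + 1) without a filter, and 0 without both libraries numbered 4. They were 0 to 8 with 1 library left out. The count was 0 without knockout replicate 1, 3 or 4 or control replicate 2, 3 or 4. It was 1 without knockout replicate 5 and 2 without knockout replicate 2. Where the count was 0, Arhgap35, the gene knocked out and 1 of the 6, was not called either. The 5 genes called for the difference of knockout effects became 3 with DESeq2, 0 with limma-voom and with limma on log2(TPM + 1), 228 on log2(TPM + 1) without a filter, 1 with the replicate block, and 0 to 6 with 1 library left out (0 without control replicate 5). The test among replicate numbers was also run with limma on log2(TPM + 1), log2(TPM + 0.1) and log2(TPM + 1) without a filter. There 1 of 5, 1 of 5 and 1 of 10 members tested passed. The 1698 genes that differed among replicate numbers became 32, 10 and 42. With 1 library left out they were 547 to 1764, the members that passed were 4 to 8, and the count was 561 and 547 without control and knockout replicate 5, 793 and 805 without control and knockout replicate 4 and 839 without control replicate 1. The causes were not tested.

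No member tested kept its knockout direction in all alternatives run. The log2 fold change of knockout over control changed sign for Zic4 (-0.13), Msx3 (-0.17) and Lbx1 (0.31) with limma-voom, for Msx3 (-0.0076) and Lbx1 (0.077) with limma on log2(TPM + 1), and for Msx3 (-0.077) and Lbx1 (0.30) on log2(TPM + 0.1). It also did for Msx3 (-0.0076), Prdm13 (-0.034) and Lbx1 (0.077) on log2(TPM + 1) without a filter, for Lbx1 with the replicate block (0.069) and for Msx3 in the fit of all 12 libraries (-0.0074). With 1 library left out it ran over both signs for Pax3 -0.10 to 0.83, Pax7 -0.19 to 1.37, Zic1 -0.35 to 0.54, Zic2 -0.20 to 0.83, Zic4 -0.13 to 0.87, Msx3 -0.28 to 0.58, Prdm13 -0.44 to 0.88 and Lbx1 -0.57 to 0.33. The difference of knockout effects changed sign for Pax7 (-0.025) and Gsx2 (-0.024) with DESeq2, for Pax7 (-0.39), Zic4 (0.18), Msx3 (0.12) and Gsx1 (0.12) with limma-voom, for Pax7 (-0.27), Msx3 (0.0030) and Gsx2 (-0.027) on log2(TPM + 0.1) and for Pax7 (-0.20) and Gsx2 (-0.078) with the replicate block. With 1 library left out it ran over both signs for Pax3 -0.80 to 0.15, Pax7 -1.20 to 0.39, Zic1 -0.59 to 0.31, Zic2 -0.92 to 0.14, Zic4 -0.81 to 0.18, Msx3 -0.61 to 0.29, Gsx2 -0.46 to 0.50, Prdm13 -1.19 to 0.16 and Lbx1 -0.50 to 0.41. The causes were not tested.

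Depth limits the lowest members: in GFP-positive libraries numbered 4 and 5, Zic2, Zic4, Gsx1, Gsx2 and Prdm13 had 0 to 4 counts, so differences among these values were not detectable. Leaving out a library in the test among numbers leaves that number with 1 library, assumed to vary like the others. Each GFP-negative genotype has 1 library, so a difference between genotypes there has no replicate check.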
